A study of Mus musculus with 3 samples.

Results

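The barcodes described here are 355 cell barcodes of the chimera cauda library, of the 47418 barcodes with 20 or more UMIs (unique molecular identifiers, 1 per captured RNA molecule) in that library and of 323212 barcodes in the whole series. Each holds at least 4 UMIs of Smcp, Odf1, Oaz3, Gapdhs and Akap4 together. Those 5 tail genes also make up 10% or more of its UMIs and outnumber its UMIs of the 5 chromatin genes Prm1, Prm2, Prm3, Tnp1 and Tnp2. The share of barcodes that met this rule was 0.749%, with an exact binomial 95% interval of 0.673 to 0.830%. The barcodes were chosen by these 10 genes, so the levels of those genes are given as a description only.

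The chimera library was made from percutaneous aspirates of the cauda epididymis, where sperm are stored before ejaculation. The animal was a Tsc22d3 knockout of the goGermline line, complemented with induced pluripotent stem cells that carry Pax7-nGFP. The other libraries came from the cauda of a Tsc22d3 knockout, taken the same way, and from the testis of an adult goGermline knockout. There was 1 library per group, all with Chromium 3′ chemistry. No test between groups was therefore possible, and every interval below covers counting error within a library only. The animals of all groups carry the knockout, and the deleted part of the gene is not given in the labels. In the chimera the stem cells are a further source of cells. Whether a barcode came from the knockout host or from the stem cells was not tested. Levels are given as CPM, the UMIs of a gene in a pool scaled to the usual common total. Tsc22d3 had 0 UMIs in the tail-rich barcodes, where 3 UMIs would be 63.1 CPM. Over whole libraries it was read at 22.8 CPM (chimera cauda), 10.8 CPM (knockout cauda) and 6.05 CPM (knockout testis). These readings do not check the labels, since a 3′ read can lie outside a deletion.

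During spermiogenesis the round spermatid builds a flagellum and replaces its histones with transition proteins and then protamines. Transcription stops as the nucleus condenses, and many messengers for the tail and for the condensed chromatin are stored and translated late. Mature sperm shed most of their cytoplasm and keep only a small residue of RNA. Smcp encodes a cysteine-rich protein of the mitochondrial capsule in the midpiece, Odf1 a core protein of the outer dense fibres, Oaz3 an antizyme of ornithine decarboxylase made in late spermatids, Gapdhs the sperm form of a glycolytic enzyme and Akap4 the main scaffold of the fibrous sheath.

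The libraries shared cell barcodes, which touches every comparison below. All 3937 barcodes of the knockout cauda matrix were also listed in the chimera matrix. In these the chimera UMIs came to a median of 0.905% of the knockout cauda UMIs, with quartiles of 0.829 and 0.992%. They held 58.8% of all chimera UMIs and 125 of the 222 chimera barcodes of 500 or more UMIs. The tail-rich barcodes stood outside this overlap with few exceptions: 353 of the 355 were in neither knockout matrix, 1 was also in the knockout cauda and 1 in the knockout testis. Of the remaining 47063 barcodes, 3544 were listed in the knockout cauda, and these held 66.5% of the UMIs of the remaining barcodes. Whether RNA read in a shared barcode came from the chimera aspirate or from the knockout cauda was not tested, so the remaining barcodes may not be chimera cells throughout. Results are therefore also given against the 43303 remaining barcodes in neither knockout matrix (the unshared remaining barcodes).

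The member shared with the knockout cauda was the deepest of all, and the 2 shared members are shown by their 16-base cell barcodes, read from the deposited barcode lists.
Shared with the knockout cauda: agaccatgtatgcttg
Shared with the knockout testis: ggttctcgtttgaaag
The first had 2781 UMIs in the chimera matrix, 585 of them from tail genes (21.04%, exact binomial 95% interval 19.5 to 22.6%). In the knockout cauda matrix it had 622 UMIs, 127 of them from tail genes (20.4%, 17.3 to 23.8%). This 1 barcode held 127 of the 170 tail gene UMIs of the knockout cauda library. The second had 37 UMIs in the chimera matrix, 5 of them from tail genes, and 3510 UMIs with 0 from tail genes in the knockout testis matrix.

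By library, tail gene UMIs were 37970 of 5395856 in the chimera cauda (7037 CPM), 170 of 41862286 in the knockout cauda (4.06 CPM) and 77 of 134795047 in the knockout testis (0.571 CPM). Without the shared barcode the knockout cauda stood at 1.03 CPM. The rule was met by 355 barcodes in the chimera cauda, by 1 barcode of 3937 in the knockout cauda and by 0 of 18108 in the knockout testis, where a count of 0 allows up to 0.0166%. The knockout matrices start at 501 and 500 UMIs. At 500 or more UMIs, 21 of the 222 chimera barcodes met the rule. The tail-rich barcodes held 23.1% of the tail gene UMIs of the chimera library, and the rest lay spread over barcodes that did not meet the rule.

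The tail-rich barcodes were mostly shallow. They had 47573 UMIs in all, with a median of 38, quartiles of 31 and 66.5 and a range of 20 to 2781. There were 77 with 20 to 29 UMIs, 158 with 30 to 49, 50 with 50 to 99, 49 with 100 to 499 and 21 with 500 or more. The 10 deepest held 34.9% of all their UMIs, the 21 deepest 55.0% and the 70 of 100 or more UMIs 76.9%. A pooled level therefore describes mainly the deep barcodes.

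**Figure D1:**
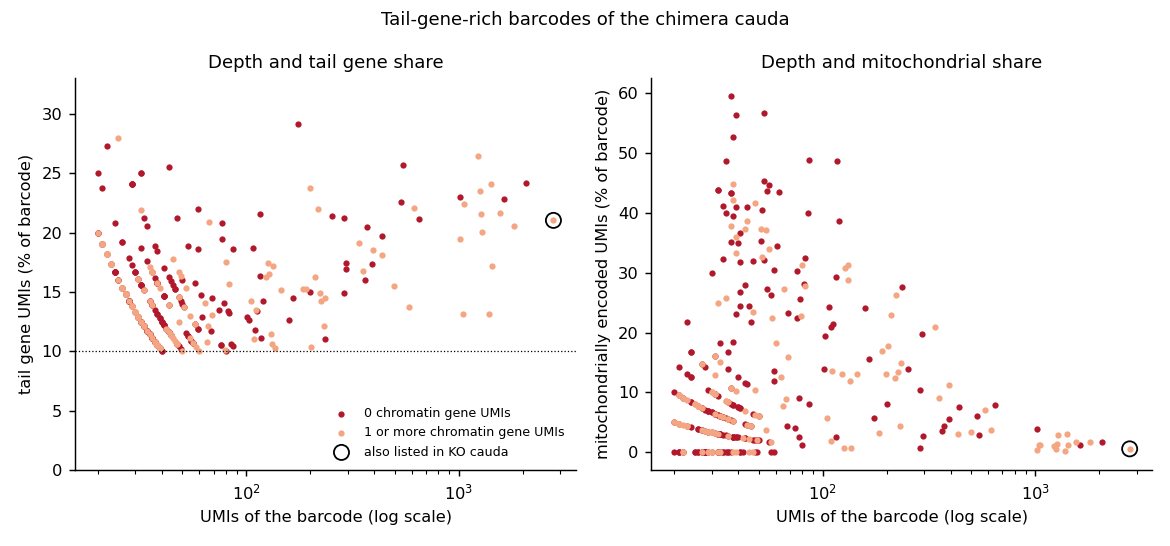
Each point is 1 of the 355 tail-rich barcodes by its UMIs (log scale). Left, the share of its UMIs from the 5 tail genes, with the dotted line at the limit of 10%; right, the share from mitochondrially encoded genes. The ring marks the barcode of 2781 UMIs that the knockout cauda matrix also lists; tail shares run from 10 to 29.1% overall and from 13.12 to 26.45% in the 21 barcodes of 500 or more UMIs, while high mitochondrial shares lie at low and middle depth.

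Members near the limits of the rule were numerous. The tail gene sum was exactly 4 in 135 members (38.0%) and 5 in 55, was 10 or more in 86, and reached 50 or more in 35. Just inside that limit stood the 135 members with a sum of 4 (median depth 30 UMIs). Just outside it stood 327 barcodes with a sum of 3 that met the other limits (median depth 25 UMIs). The tail share was 10 to under 12% in 84 members, against 85 barcodes outside with 8 to under 10%. The requirement to exceed the chromatin genes left out only 1 barcode, and 14 barcodes met every limit but the 20 UMIs.

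Of the 5 tail genes, Smcp, Odf1 and Oaz3 carried the rule. Smcp had 5470 UMIs and was seen in 332 of the 355 members, Odf1 had 2261 UMIs in 266 members, and Oaz3 had 999 UMIs in 157 members. Gapdhs had only 39 UMIs in 25 members, and Akap4 16 UMIs in 12 members. Smcp stood at 114981 CPM in the tail-rich barcodes, 11333 CPM in the protamine-rich barcodes and 1999 CPM in the remaining barcodes. Gapdhs stood at 820 CPM in the tail-rich barcodes, 4772 CPM in the protamine-rich barcodes and 236 CPM in the remaining barcodes. The protamine-rich barcodes are the 242 that met the mirror image of the rule (18441 UMIs, median 32), chosen by the same 10 genes. Few of them were deep: the 30 of 100 or more UMIs held 11093 UMIs, and the deepest held 4162. Their pooled levels therefore rest largely on these deep barcodes.

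Leaving each tail gene out of the rule in turn gave a reading of that gene that the choice of barcodes had not used. With Smcp left out, 48 barcodes met the rule, and Smcp stood at 105621 CPM in them, against 2935 CPM in all others (36.0-fold, exact conditional 95% interval 33.6 to 38.5). It was seen in 25 of the 48 (52.1%), against 16.4% of the others. With Odf1 left out, 188 were chosen, with Odf1 at 43214 CPM, against 2023 CPM (21.4-fold, 20.3 to 22.5). With Oaz3 left out, 303 were chosen, with Oaz3 at 20360 CPM, against 470 CPM (43.3-fold, 40.0 to 46.7). These 3 genes thus occurred together, most clearly in deep barcodes. At 100 or more UMIs the left-out gene was seen in 11 of 11 barcodes (Smcp), 53 of 54 (Odf1) and 55 of 67 (Oaz3). At 20 to 99 UMIs it was seen in 14 of 37, 46 of 134 and 50 of 236. These are 37.8%, 34.3% and 21.2%, against 16.2%, 15.2% and 3.99% of the others at that depth. Gapdhs and Akap4 occurred with the other tail genes far less. Gapdhs was 1.77-fold higher in the 342 barcodes chosen without it (1.08 to 2.75), on 20 UMIs. Akap4 stood at 63.5 CPM in the 346 chosen without it, against 69.8 CPM in the others (ratio 0.911, 0.187 to 2.69), on 3 UMIs.

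The chromatin genes were sparse in the tail-rich barcodes. Their sum was 0 in 222 members, 1 in 91, 2 in 31 and 3 in 7. The 4 others had 4 or more, and 1 of these, of 1428 UMIs, had 43 UMIs of Prm2, where the next highest chromatin sum was 7. Prm2, the more abundant protamine of mouse sperm, had 147 UMIs in 83 members. That is 3090 CPM in the tail-rich barcodes, 84811 CPM in the protamine-rich barcodes and 3245 CPM in the remaining barcodes. Thinned to 20 UMIs per barcode, Prm2 was seen in 9.30% of the tail-rich barcodes (6.48 to 12.8%), 78.1% of the protamine-rich barcodes and 16.1% of the remaining barcodes.

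Late spermatid and sperm genes outside the rule were used to check the label. Of the 13 in that list, 8 reached 200 CPM in either pool, 7 of them were 4-fold or more higher in the tail-rich barcodes and 0 were lower, with a median log2 fold of 4.70 over the 8. Among the 7, Pgk2 (104 CPM in the remaining barcodes) and Cabyr (21.4 CPM) reached 200 CPM only in the tail-rich pool, so they could only count as higher. Against the unshared remaining barcodes, 6 of 9 were higher. Cabyr (60.5 CPM there) again could only count as higher. Over all 846 genes that reached 200 CPM in either pool the median log2 fold was -1.95, and 30.0% were 4-fold or more higher. The list summed to 58331 CPM in the tail-rich barcodes, against 2796 CPM in the remaining barcodes (20.9-fold, 20.02 to 21.7). With the unshared remaining barcodes as the reference, the fold was 7.24. In the protamine-rich barcodes the list stood at 32265 CPM, so the tail-rich barcodes were only 1.81-fold higher there (1.65 to 1.98). All 13 genes reached 200 CPM in that comparison, with 1 higher and 5 lower in the tail-rich barcodes. Over all 896 genes of that comparison 10.9% were higher and 36.7% lower. The list thus set the tail-rich barcodes apart from the protamine-rich ones far less than from the remaining ones. Hspb9, a small heat shock protein gene of the testis, had 353 UMIs and was 18.4-fold higher. Spata18, a gene of mitochondrial quality control, had 71 UMIs and was 6.76-fold higher, but 2.32-fold against the unshared remaining barcodes. Ropn1 and Meig1 had 0 UMIs, and Spem1 had 3.

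The label held more firmly for the deep barcodes than for the shallow ones. In the barcodes of 100 or more UMIs the list stood at 69528 CPM in the 70 tail-rich barcodes, against 688 CPM in the 2343 remaining barcodes (101-fold) and 8140 CPM in the 701 of these in neither knockout matrix (8.54-fold). In those of 20 to 99 UMIs it stood at 21159 CPM in the 285 tail-rich barcodes, against 7435 CPM in the 44720 remaining barcodes (2.85-fold) and 8043 CPM in the 42602 of these in neither knockout matrix (2.63-fold). In the 147 barcodes with leukocyte markers (median 18426 UMIs), which should lack sperm RNA, the list stood at 125 CPM, and 118 of these 147 were also listed in the knockout cauda matrix.

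Against the remaining barcodes, 254 genes outside the rule were 4-fold or more higher in the tail-rich barcodes, which is 30.0% of the 846 genes with 200 CPM or more in either pool, and 409 were 4-fold or more lower (48.3%). Against the unshared remaining barcodes, 226 of 733 were higher (30.8%) and 256 were lower (34.9%). A gene that reached 200 CPM only in the tail-rich pool could only count as higher, and 1 that reached it only in the remaining pool only as lower. A total of 224 genes were higher against both references and 230 were lower against both. None of the 254 higher genes was mitochondrially encoded or a ribosomal protein gene. The 409 lower genes included 77 of the 80 ribosomal protein genes and 10 of the 13 mitochondrially encoded genes among the 846.

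The most abundant messengers outside the rule were enzymes and small binding proteins. Gstm5, a mu-class glutathione S-transferase, led with 1811 UMIs: 38068 CPM in the tail-rich barcodes, against 1305 CPM in the remaining barcodes (29.2-fold, 27.7 to 30.7). It was seen in 158 members, among them all 21 of 500 or more UMIs and 67 of the 70 of 100 or more. Pebp1, a phosphatidylethanolamine-binding protein, had 1681 UMIs: 35335 CPM in the tail-rich barcodes, against 1424 CPM in the remaining barcodes (24.8-fold, 23.5 to 26.2), in 163 members. Dbil5, a testis relative of the diazepam-binding inhibitor, had 1091 UMIs: 22933 CPM in the tail-rich barcodes, against 995 CPM in the remaining barcodes (23.0-fold, 21.6 to 24.6).

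Ube2n, a ubiquitin-conjugating enzyme, stood at 16501 CPM in the tail-rich barcodes, against 444 CPM in the remaining barcodes (37.2-fold). Sord, the sorbitol dehydrogenase that turns sorbitol into fructose, stood at 15786 CPM, against 385 CPM (41.0-fold). St6galnac2, a sialyltransferase, stood at 14798 CPM, against 359 CPM (41.3-fold). Nupr1l, a relative of the nuclear protein Nupr1, had 673 UMIs (33.8-fold). Gpat4, an acyltransferase of glycerolipid synthesis, had 429 UMIs (30.9-fold), and Tppp2, a tubulin-binding protein of the sperm tail, had 394 (29.2-fold). With Crisp2 these are the 10 highest genes outside the rule when mitochondrially encoded genes, ribosomal protein genes and unnamed gene models are left aside. Each was seen in all 21 barcodes of 500 or more UMIs. The mitochondrial ribosomal RNA mt-Rnr2 stood above them all, at 55494 CPM. Set against the unshared remaining barcodes, their folds ran from 7.89 for Dbil5 to 14.99 for Crisp2.

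**Figure D2:**
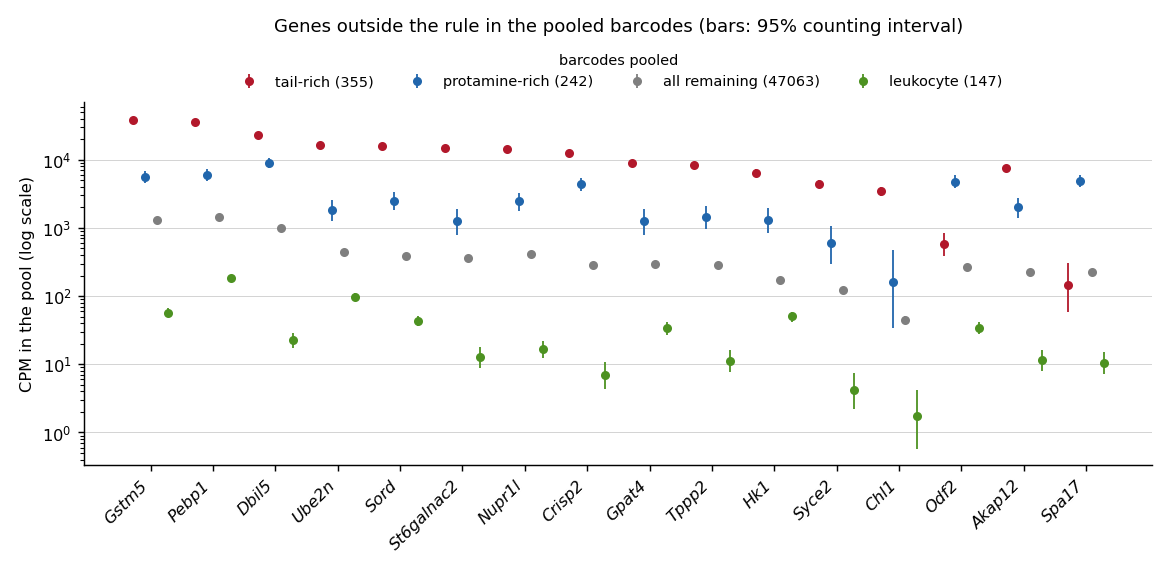
Points give the level of 16 genes outside the rule (CPM, log scale) pooled over the tail-rich, protamine-rich, all remaining and leukocyte barcodes; bars are exact Poisson 95% intervals. Tail-rich barcodes stand highest for the 13 genes from Gstm5 to Chl1 and for Akap12, and below the protamine-rich barcodes for Odf2 and Spa17.

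The tail-rich barcodes also had the highest thinned shares of Gstm5, Crisp2, Ube2n and Sord. With each barcode cut to 20 UMIs, Gstm5 was seen in 27.0% of the tail-rich barcodes (22.5 to 32.0%), 9.09% of the protamine-rich, 6.97% of the remaining and 0 of the 147 leukocyte barcodes, which allows up to 2.48%. Unthinned, the shares were 44.5% of the tail-rich, 20.7% of the protamine-rich, 10.6% of the remaining and 55.8% of the leukocyte barcodes, whose median depth was far higher. Crisp2 was seen in 9.58% of the thinned tail-rich barcodes, 3.31% of the protamine-rich and 1.25% of the remaining. Ube2n was seen in 18.6% of the tail-rich, 2.07% of the protamine-rich and 2.14% of the remaining barcodes, and Sord in 14.9% of the tail-rich, 1.65% of the protamine-rich and 1.82% of the remaining barcodes, so for these 2 genes the protamine-rich and remaining barcodes did not separate.

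Genes of the flagellum outside the rule, 26 in the list, were uneven. Only 4 reached 200 CPM in either pool, and 2 of these were higher and 0 lower (median log2 fold 3.01, against -1.95 over all 846 genes, of which 30.0% were higher). Against the unshared remaining barcodes, 5 were tested, with 2 higher and 1 lower (median log2 fold -0.27, against -1.39 over all 733 genes, of which 30.8% were higher), and the summed fold was 3.43. Spa17 was the lower one there (ratio 0.226). The list summed to 10174 CPM in the tail-rich barcodes, against 1057 CPM in the remaining barcodes (9.63-fold, 8.75 to 10.6), and 394 of its 484 UMIs came from Tppp2. Cabyr, a calcium-binding protein of the fibrous sheath, had 30 UMIs (29.4-fold). Odf2, another protein of the outer dense fibres, had 28 UMIs and stood at 589 CPM in the tail-rich barcodes, against 264 CPM in the remaining barcodes (2.23-fold). Spa17, a sperm autoantigen that binds kinase anchoring proteins, had 7 UMIs and stood at 147 CPM in the tail-rich barcodes, against 227 CPM in the remaining barcodes. Tppp2 and Cabyr were thus the 2 flagellum genes higher by 4-fold or more, against both references. Cabyr stood at 21.4 CPM in the remaining and 60.5 CPM in the unshared remaining barcodes. It reached 200 CPM only in the tail-rich pool, so it could only count as higher against either reference.

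Genes of sperm energy metabolism outside the rule, 15 in the list, summed to 11750 CPM in the tail-rich barcodes, against 915 CPM in the remaining barcodes (12.9-fold, 11.7 to 14.0). Of the 5 that reached 200 CPM, 3 were higher and 0 lower (median log2 fold 4.81), against 30.0% higher over all genes, and the same 3 were higher against the unshared remaining barcodes, where the summed fold was 6.44. These 3 reached 200 CPM only in the tail-rich pool, so against all remaining barcodes they could only count as higher. Hk1, the hexokinase of the first glycolytic step, had 306 UMIs in 70 members and stood at 6432 CPM in the tail-rich barcodes, against 171 CPM in the remaining barcodes (37.7-fold). Pgk2, the phosphoglycerate kinase of the male germ line, had 190 UMIs (38.5-fold), and Aldoart1, a sperm aldolase, had 14 (28.0-fold). Tpi1, the triosephosphate isomerase, reached 3.86-fold on 24 UMIs. Ldhc, the lactate dehydrogenase of the male germ line, had 8 UMIs.

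The acrosome list rested on a pair of genes. Of its 21 members, 2 reached 200 CPM and both were higher: Crisp2, a cysteine-rich secretory protein of the acrosome and tail, with 607 UMIs (43.9-fold, 39.9 to 48.3), and Ccdc136, a coiled-coil protein needed for acrosome formation, with 294 UMIs (32.8-fold). They gave 901 of the 907 UMIs of the list. Over all 846 genes 30.0% were higher. Ccdc136 stood at 188 CPM in the remaining barcodes, so against these it could only count as higher. The list stood at 19065 CPM in the tail-rich barcodes, against 557 CPM in the remaining barcodes (34.3-fold, 31.7 to 37.0). Against the unshared remaining barcodes both genes stayed higher, and the summed fold was 12.1. The other 19 members, Acr and Izumo1 among them, had 0 to 3 UMIs each.

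Smaller groups were read at low counts. Of the 14 ion transport genes only Catsperg1, a subunit of the sperm calcium channel, reached 200 CPM, and it was 23.5-fold higher on 20 UMIs. It stood at 17.9 CPM in the remaining and 49.2 CPM in the unshared remaining barcodes, so it could only count as higher against either reference. Of the 14 signalling genes 3 reached 200 CPM and all were higher: Tssk6 with 40 UMIs (5.63-fold), Tssk3 with 23 (23.2-fold) and Tssk2 with 11 (6.79-fold), all testis-specific serine kinases. They reached 200 CPM only in the tail-rich pool and could only count as higher, and 30.0% were higher over all genes. With the unshared remaining barcodes as the reference, only Tssk3 stayed past 4-fold (8.33-fold), with Tssk2 at 2.40-fold and Tssk6 at 1.91-fold. Against the protamine-rich barcodes the signalling list was 0.494-fold (0.360 to 0.680), with 0 of 6 tested genes higher and 0 lower. Of the 15 mitochondrial sheath genes 2 reached 200 CPM. Spata18 was higher, a call that did not hold against the unshared remaining barcodes, and Gpx4, the selenoprotein of the capsule, stood at 715 CPM in the tail-rich barcodes, against 685 CPM in the remaining barcodes (1.04-fold). Of 21 lesser known sperm genes 9 reached 200 CPM, with 6 higher and 0 lower (median log2 fold 2.92; 30.0% higher over all genes), among them Akap12, a scaffold of protein kinase A, with 364 UMIs (33.8-fold). Ubl4b, another of the 6, stood at 129 CPM in the remaining barcodes, so it could only count as higher. Set against the unshared remaining barcodes, 12 of the list were tested, with 3 higher (Akap12, Dbil5 and Hspb9), 1 lower (Iqcf3) and a median log2 fold of 0.62. The chromatin list outside the rule holds 13 symbols, older and newer names of some genes among them, and 8 of these are in the count table. Only H3f3b, a replacement histone gene, reached 200 CPM, and it stood at 252 CPM in the tail-rich barcodes, against 737 CPM in the remaining barcodes. Of the 12 RNA control genes only Pabpc1, the poly(A)-binding protein, reached 200 CPM, and it was lower (ratio 0.196) on 8 UMIs, but not by 4-fold against the unshared remaining barcodes (ratio 0.326).

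The meiosis list, set beside the others as a reading of earlier stages, rested on 1 gene. Syce2, which encodes a central element protein of the synaptonemal complex, had 212 UMIs in 64 members and stood at 4456 CPM in the tail-rich barcodes, against 124 CPM in the remaining barcodes (35.8-fold). Against these it reached 200 CPM only in the tail-rich pool and could only count as higher. In the unshared remaining barcodes it stood at 358 CPM (12.5-fold). The other 14 members of that list had 0 to 3 UMIs each, with Sycp1 at 3 and Sycp3 at 0.

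Among named genes, with unnamed gene models left aside, most of the largest folds against the remaining barcodes belonged to scarce messengers. Ppef1, a protein phosphatase with EF hands, had 16 UMIs in the tail-rich barcodes and 14 in the remaining barcodes (114-fold, 52.3 to 253). D1Pas1, a DEAD-box RNA helicase of the male germ line, had 18 in each (100-fold, 49.1 to 204). Lrrc63, a leucine-rich repeat gene, had 26 in the tail-rich barcodes and 31 in the remaining barcodes (83.9-fold). Chl1, a cell adhesion molecule best known from the nervous system, was more abundant. It had 165 UMIs in 52 members and stood at 3468 CPM in the tail-rich barcodes, against 44.8 CPM in the remaining barcodes (77.5-fold, 62.9 to 95.4), and at most 16 of its UMIs lay in 1 member. The others of the 15 with the largest folds were Fam83e, Ttbk1, Ankef1, Ms4a13, Rgs22, Cfap69, Pla2g2c, Ccdc7a, Pdzk1, BB014433 and Ubxn10, from 61.9-fold down to 47.0-fold, of which BB014433 had 108 UMIs. Against the unshared remaining barcodes, these 15 stood between 15.9-fold and 38.1-fold.

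The promoters of the higher genes were searched for the cyclic AMP response element TGACGTCA, the site of the spermatid activator CREM, which is its own reverse complement and so was read on both strands at once. RefSeq windows on GRCm38.p6, from 250 bases before to 50 bases after the start, matched 204 of the 254 higher genes by symbol. The motif was in 7 of the 204 (3.43%), 13 of 306 matched lower genes (4.25%) and 549 of all 27025 genes in the table (2.03%). The share in the higher genes was therefore close to that in the lower ones. The windows of the higher genes with most UMIs that hold it are shown, with the motif in capitals: Ppm1a, a magnesium-dependent protein phosphatase (192 UMIs, 23.7-fold; chromosome 12, 72760961 to 72761260, plus strand), and Csnk1g2, a casein kinase (171 UMIs, 15.1-fold; chromosome 10, 80629406 to 80629705, plus strand).
Ppm1a: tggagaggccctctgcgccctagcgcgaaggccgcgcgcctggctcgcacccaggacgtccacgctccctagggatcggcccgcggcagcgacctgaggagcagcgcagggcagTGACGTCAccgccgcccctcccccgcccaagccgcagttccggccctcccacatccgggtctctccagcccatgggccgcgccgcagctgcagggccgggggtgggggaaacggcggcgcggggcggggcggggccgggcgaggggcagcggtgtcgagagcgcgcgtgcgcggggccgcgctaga
Csnk1g2: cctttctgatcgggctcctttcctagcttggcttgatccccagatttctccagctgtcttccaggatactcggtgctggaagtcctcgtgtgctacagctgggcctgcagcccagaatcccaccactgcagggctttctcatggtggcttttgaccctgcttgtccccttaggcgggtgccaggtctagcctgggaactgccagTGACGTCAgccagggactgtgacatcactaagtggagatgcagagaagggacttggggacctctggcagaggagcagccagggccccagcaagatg
The motif begins 136 bases before the start of Ppm1a and 46 bases before that of Csnk1g2.

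Ribosomal protein genes and markers of macrophages and B lymphocytes were lower in the tail-rich barcodes, among the 48.3% of all genes that were lower against the remaining barcodes and the 34.9% that were lower against those in neither knockout matrix. Ribosomal protein genes summed to 22744 CPM in the tail-rich barcodes, against 176496 CPM in the remaining barcodes (0.129-fold, and 0.259-fold against those in neither knockout matrix). Macrophage markers stood at 4309 CPM in the tail-rich barcodes, against 26714 CPM in the remaining barcodes (0.161-fold), with 7 of the 7 that reached 200 CPM lower and 8 of 10 seen. Lyz2, the lysozyme of myeloid cells, gave 171 of the 205 marker UMIs. With the unshared remaining barcodes as the reference, 6 of 7 macrophage markers were lower. B lymphocyte markers stood at 715 CPM in the tail-rich barcodes, against 4450 CPM in the remaining barcodes (0.161-fold), with 5 of 5 lower, and 3 of 4 against the unshared remaining barcodes. Red blood cell markers stood at 3573 CPM in the tail-rich barcodes, against 10759 CPM in the remaining barcodes (0.332-fold), with 1 of 4 lower. Set against the unshared remaining barcodes, the fold was 0.112, with 4 of 4 lower. Epididymal epithelial markers stood at 967 CPM in the tail-rich barcodes, against 2350 CPM in the remaining barcodes (0.411-fold), with 0 of 2 lower and Crisp1 giving 24 of the 46 UMIs. Against the unshared remaining barcodes, the fold was 0.161, with 4 of 6 lower. T or NK lymphocyte and fibroblast markers had 0 UMIs in the tail-rich barcodes, where 3 UMIs would be 63.1 CPM. In the remaining barcodes they stood at 42.4 and 53.4 CPM, under that limit, so a lower level could not be read. In the unshared remaining barcodes fibroblast markers stood at 150 CPM, which gives 0.420-fold with the 0 set at 3 UMIs (upper limit 0.521). T or NK lymphocyte markers stood at 66.2 CPM there, near the limit (upper limit 1.19-fold).

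The 15 genes with the largest folds in this direction had 1 or 2 UMIs each in the tail-rich barcodes, so their ratios carry wide intervals. Genes with 0 UMIs there were set at the floor of 3 UMIs, which moved them down this ranking. Itga6, with 0 UMIs against 782 CPM in the remaining barcodes, was thus read at a ratio of 0.0807. Selplg, 1 of the 15, had 1 UMI against 357 CPM and a ratio of 0.0589. The 15 are therefore not the most lowered genes with certainty. H2-Ea-ps, a pseudogene of MHC class II, had 1 UMI in the tail-rich barcodes and 4009 in the remaining barcodes (ratio 0.0250, 0.000632 to 0.139). Npm1, the nucleolar protein nucleophosmin, had 1 UMI in the tail-rich barcodes and 2563 in the remaining barcodes (ratio 0.0390, 0.000988 to 0.218). Eef1b2, a translation elongation factor, had 2 UMIs (ratio 0.0492, 0.00596 to 0.178). Ebf1, the B cell transcription factor, had 1 (ratio 0.0580, 0.00147 to 0.324). The others of the 15 were Ptpn18, Sem1, Ahnak, Cd53, Atp5l, Slc25a3, Cox7a2l, Apbb1ip, Sat1, Selplg and Selenop.

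The folds differed widely with barcode depth. The acrosome list was 4.92-fold higher among barcodes of 20 to 29 UMIs, 6.19-fold at 30 to 49, 12.2-fold at 50 to 99, 23.0-fold at 100 to 499 and 150-fold at 500 or more. The flagellum list was 1.497-fold, 1.39-fold, 2.69-fold, 5.98-fold and 60.9-fold higher over the same bands, and its interval included 1 in the lowest 2 bands. The level in the tail-rich barcodes itself moved less: the flagellum list stood at 4675 CPM in those of 20 to 29 UMIs and 13273 CPM in those of 500 or more. In the remaining barcodes it stood at 3123 CPM in the lowest band and 218 CPM in the highest, where 124 of 201 barcodes were listed in the knockout cauda. Against remaining barcodes in neither knockout matrix the folds stayed between 4.88 and 9.50 for the acrosome list, 1.60 and 6.43 for the energy list and 1.34 and 3.90 for the flagellum list over the 5 bands.

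**Figure D3:**
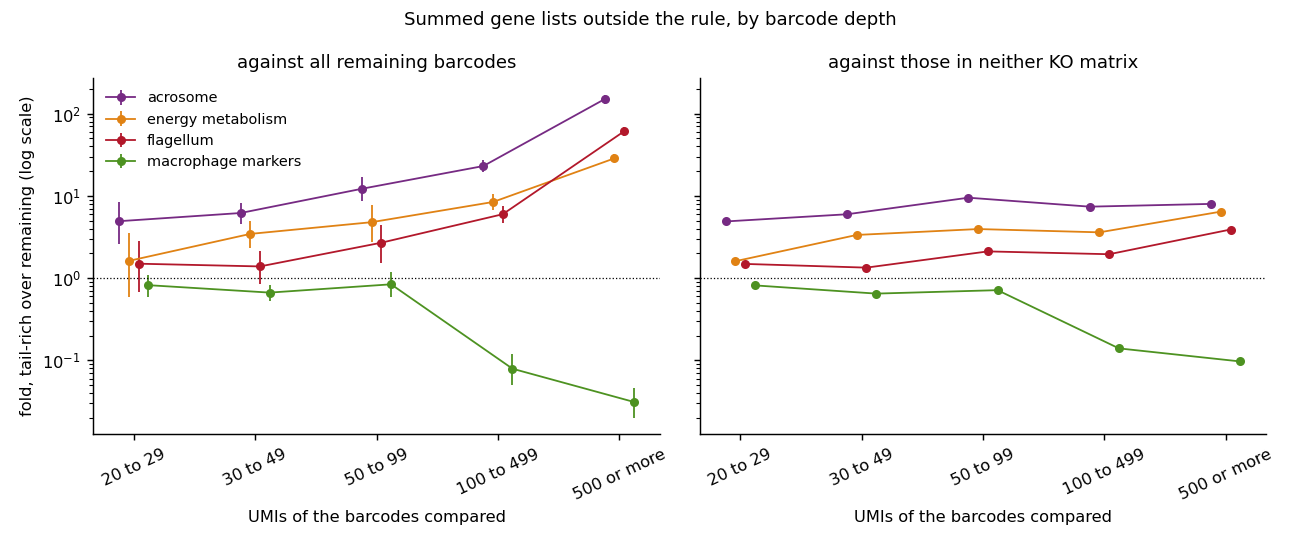
Fold of 4 summed gene lists in tail-rich over remaining barcodes (log scale) within 5 bands of barcode depth, against all remaining barcodes with exact 95% counting intervals (left) and against those in neither knockout matrix (right). The acrosome list runs from 4.92-fold to 150-fold on the left and between 4.88-fold and 9.50-fold on the right; macrophage markers run from 0.821-fold to 0.0312-fold on the left.

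Markers of other cells moved with depth as well. Macrophage markers stood at 22338 CPM in the tail-rich barcodes of 20 to 29 UMIs, against 27215 CPM in the remaining barcodes of that depth (0.821-fold, 0.594 to 1.11). At 500 or more UMIs they stood at 918 CPM in the tail-rich barcodes, against 29382 CPM in the remaining barcodes (0.0312-fold). The mitochondrially encoded share of the tail-rich pool was 5.45%, 12.9%, 22.3%, 12.5% and 1.89% over the 5 bands, and the ribosomal protein share 7.84%, 7.16%, 4.04%, 1.45% and 0.880%. The shallow tail-rich barcodes thus held leukocyte and ribosomal protein messengers at levels nearer to those of other shallow barcodes, and the part of such RNA in the fold of any gene was not tested.

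Single genes followed the same split. Among barcodes of 20 to 99 UMIs, Gstm5 stood at 12895 CPM in the tail-rich barcodes, against 3731 CPM in the remaining barcodes (3.46-fold, 2.91 to 4.08). Crisp2 was 8.58-fold higher at that depth (6.59 to 11.01) and Chl1 12.6-fold (7.06 to 21.1), while Hspb9 was 1.47-fold higher with an interval that included 1 (0.870 to 2.33). Counted with equal weight per barcode, Gstm5 made up a mean of 1.69% of the UMIs of a tail-rich barcode, against 0.386% of a remaining barcode. Crisp2 made up 0.719% of a tail-rich barcode, against 0.0687% of a remaining barcode.

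The 21 tail-rich barcodes of 500 or more UMIs could be read 1 by 1. Smcp, as part of the rule, took 7.29% to 16.9% of their UMIs, with a median of 14.0%, and Odf1 2.45% to 9.60%, with a median of 4.60%. Of the 10 genes outside the rule given above as the highest, Sord varied least, from 1.25% to 2.80%. Crisp2 varied most by the ratio of highest to lowest, from 2 of 1043 UMIs (0.192%, 0.0232 to 0.691%) to 27 of 581 (4.65%, 3.09 to 6.69%). The barcode with the highest share of Crisp2 had the lowest share of Gstm5, with 6 of 581 UMIs (1.03%), while the highest share of Gstm5 was 99 of 1409 UMIs (7.03%). Dbil5 ran from 0.377% to 7.18%, and Akap12 from 0 to 4.53%. Prm2 was seen in 12 of the 21. The mitochondrially encoded share ran from 0.216% to 7.88%, with a median of 1.65%.

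**Figure D4:**
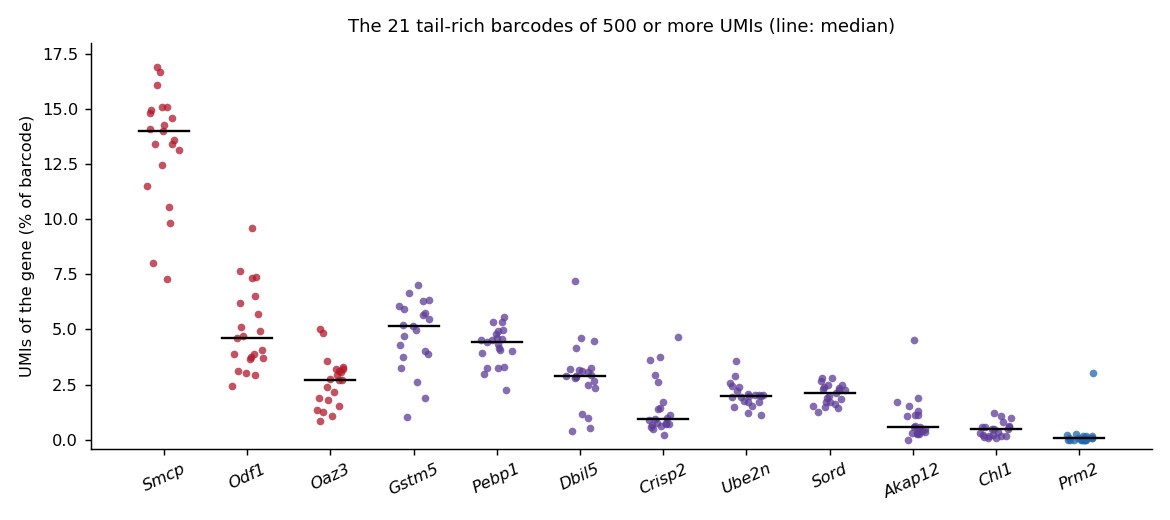
Each point is 1 of the 21 tail-rich barcodes of 500 or more UMIs, placed by the share of its UMIs from a gene; lines are medians. Smcp, Odf1 and Oaz3 (red) belong to the rule, Prm2 (blue) to the chromatin genes and the others to neither; Sord stays between 1.25% and 2.80%, while Crisp2 spans 0.192% to 4.65% and 1 barcode holds 3.01% Prm2.

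The tail-rich barcodes also differed from the protamine-rich barcodes in genes outside the rule. Of 896 genes with 200 CPM or more in either pool, 98 were 4-fold or more higher in the tail-rich barcodes (10.9%) and 329 lower (36.7%). In the protamine-rich pool 3 UMIs are 163 CPM, so most of the lower genes rest on few UMIs. With at least 10 UMIs in the higher pool, 98 of 496 were higher (19.8%) and 128 lower (25.8%). Of the 98 higher genes, 91 were also higher against the remaining barcodes, where 30.0% of all 846 genes were higher. Both comparisons use the same tail-rich pool, so their calls are not independent.

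Higher in the tail-rich barcodes were Chl1, with 165 UMIs in the tail-rich and 3 in the protamine-rich barcodes (21.3-fold, 7.17 to 104), and Pdzd8, a lipid transfer protein of membrane contacts, with 125 in the tail-rich and 3 in the protamine-rich barcodes (16.2-fold, 5.40 to 79.4). Ppm1a had 192 in the tail-rich and 5 in the protamine-rich barcodes (14.9-fold, 6.27 to 46.4), and Tax1bp1, an autophagy receptor, 115 in the tail-rich and 3 in the protamine-rich barcodes (14.9-fold, 4.96 to 73.1). Tcea1, Ube3b, Srpk2 and Snrpd1 had 39 to 53 UMIs in the tail-rich barcodes and 1 each in the protamine-rich barcodes, so their ratios of 15.1 to 20.5 are loose. St6galnac2 was 11.9-fold higher (7.84 to 18.8), Gstm5 6.75-fold (5.54 to 8.31) and Crisp2 2.94-fold (2.33 to 3.76).

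Genes of late spermatids were among those lower in the tail-rich barcodes. Hmgb4, a high mobility group gene of the male germ line, had 1 UMI in the tail-rich and 43 in the protamine-rich barcodes (ratio 0.00901, 0.000223 to 0.0530). Iqcf3, a gene with an IQ motif, had 0 in the tail-rich and 51 in the protamine-rich barcodes. With the 0 set at the floor of 3 UMIs this is 43.9-fold lower, and the exact interval starts at 34.4-fold. Nt5c1b, Dynll2, Dda1, Tmem247, Hspa1l and Fam229a had 1 UMI each in the tail-rich and 15 to 25 in the protamine-rich barcodes. Spa17 had 7 in the tail-rich and 90 in the protamine-rich barcodes (ratio 0.0302), Odf2 28 and 88 (ratio 0.123), Meig1, of the spermatid manchette, 0 and 33, and Spem1, of late spermatid maturation, 3 and 21. The 30 protamine-rich barcodes of 100 or more UMIs gave 76 of the 90 UMIs of Spa17 and 45 of the 51 of Iqcf3. They also gave 30 of the 33 of Meig1 and 18 of the 21 of Spem1. How these counts spread over single barcodes was not tested.

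Flagellum genes outside the rule summed to 10174 CPM in the tail-rich barcodes, against 16648 CPM in the protamine-rich barcodes (0.611-fold, 0.529 to 0.707). The energy list stood at 11750 CPM in the tail-rich barcodes, against 6887 CPM in the protamine-rich barcodes (1.71-fold, 1.40 to 2.08), and the acrosome list at 19065 CPM, against 6724 CPM (2.84-fold, 2.35 to 3.45). The energy sum did not describe most of its members, since Hk1 gave 306 and Pgk2 190 of its 559 UMIs. Of the 9 energy genes at 200 CPM or more in either pool, 1 was 4-fold or more higher (Hk1, 4.94-fold) and 5 were lower. Over all 896 genes 10.9% were higher and 36.7% lower. At 100 or more UMIs the flagellum list stood at 11980 CPM in the tail-rich barcodes, against 23168 CPM in the protamine-rich barcodes (0.517-fold, 0.442 to 0.606). Within the list Tppp2 was 5.66-fold higher in the tail-rich barcodes, while 6 of the 10 members at 200 CPM or more were 4-fold or more lower, against 36.7% of all 896 genes.

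Ratios between genes within a pool do not depend on its total. Odf1 had 0.413 UMIs per UMI of Smcp in the tail-rich barcodes (0.393 to 0.434), 0.383 in the protamine-rich barcodes (0.292 to 0.498), 0.9505 in the remaining barcodes and 1.16 in the leukocyte barcodes. These 2 genes belong to the rule, so this ratio is a description. Spa17 had 0.00387 UMIs per UMI of Gstm5 in the tail-rich barcodes (0.00155 to 0.00798), 0.865 in the protamine-rich barcodes (0.645 to 1.16), 0.174 in the remaining barcodes (0.163 to 0.186) and 0.185 in the leukocyte barcodes (0.121 to 0.275). The ratio of these 2 genes in the remaining barcodes was thus near that in the leukocyte barcodes and lay between those of the tail-rich and the protamine-rich barcodes.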

How the data were processed

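Single-cell 3′ RNA libraries from the chimera cauda, knockout cauda and knockout testis were read as deposited UMI count matrices, made with Cell Ranger (version 6.1.2 or 4, per the file headers; version 6 per the submitters' processing notes) on GRCm38.p6. The counts are deposited without normalization. The other deposited entries are barcodes and gene names. The totals were 5395856 UMIs in 301167 barcodes for the chimera cauda, 41862286 in 3937 for the knockout cauda and 134795047 in 18108 for the knockout testis. Barcodes under 20 UMIs were left out, and no doublet caller was run on barcodes this shallow. UMIs were summed over the barcodes of a class and given as CPM, scaled to a common total. A gene counted as higher or lower at 4-fold or more, with 200 CPM or more in the higher pool. A pool at 0 stood at 3 UMIs. Intervals are exact at 95% (Poisson for levels, Clopper-Pearson for shares, conditional binomial for folds) and cover counting error only. In simulated pools for the tail-rich against remaining comparison (603 genes tested), 99 of 100 genes raised 8-fold, 90 of 100 lowered 8-fold and 11 of 403 not changed were called, and the intervals held the true fold of 92.8% of genes not changed. Barcodes were thinned to 20 UMIs with seed 7. Gene positions and names came from the files and GENCODE M21. Named genes outside the rule, mitochondrially encoded, ribosomal protein and unnamed gene models left aside, were the 15 with the largest fold in each direction, the 10 highest, the 8 with the largest fold in each direction against protamine-rich barcodes, and the 4 with most UMIs of each of 17 lists; other list members were named after their values were seen. The barcodes, gene lists and rules were chosen with earlier results of these data known. Python 3.11.15, numpy 2.4.6, scipy 1.17.1, pandas 2.3.3 and matplotlib 3.10.9 were used.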

Additional observations from a re-analysis of the deposited data

Results flagged for a closer look

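Tail gene RNA also appeared in the barcodes below the depth limit, which no comparison above used. The 167084 chimera barcodes of 1 to 19 UMIs held 588713 UMIs, 7019 of them from the 5 tail genes, which is 11923 CPM (exact Poisson 95% interval 11645 to 12205). The whole knockout cauda library stood at 4.06 CPM for these genes, and at 1.03 CPM without the barcode shared with the chimera. These shallow barcodes held 18.5% of all tail gene UMIs of the chimera library, against 23.1% in the 355 tail-rich barcodes. The difference from the knockout cauda was not tested, with 1 library per group and no knockout barcode under 500 UMIs listed.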

How the results depend on the processing

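The tail-rich count of 355 became 120 at 50 or more UMIs, 165 with a tail sum of 6, 45 with a tail share of 20%, 222 with 0 chromatin gene UMIs, 48 without Smcp in the rule, 188 without Odf1 and 70 at 100 or more UMIs. These follow from how each rule is built. The count of higher genes stayed within 1.5 times of 254 under all 19 alternatives tried for it, from 177 to 366, and was 228 without the shared barcodes in either pool. The count of lower genes (409) became 244 with 0 chromatin gene UMIs, 101 under 500 UMIs, 625 at a limit of 100 CPM, 148 without Smcp in the rule, 256 against remaining barcodes in neither knockout matrix and 245 with both pools so limited. All 54 folds of the 3 lists stayed above 1, and 40 of them left the counting interval of the main value. The cause was not tested. The flagellum, energy and acrosome folds were 22.1, 19.8 and 67.2 at 50 or more UMIs, 10.98, 15.2 and 31.5 with a tail share of 20%, and 6.29, 9.30 and 24.0 with 0 chromatin gene UMIs. They were 2.68, 4.88 and 12.4 under 500 UMIs, 3.90, 7.38 and 15.01 against remaining barcodes of 20 to 99 UMIs, and 6.32, 10.6 and 26.9 against those with 0 UMIs of the rule genes. They were 11.8, 15.7 and 41.9 with totals that leave out the rule genes, 7.85, 11.6 and 25.8 without Smcp in the rule, and 10.7, 14.3 and 37.9 without Odf1. The energy fold was 14.1 with a tail sum of 6. Alternatives chosen after seeing the data gave 3.43, 6.44 and 12.1 against remaining barcodes in neither knockout matrix, 3.41, 6.29 and 12.01 with both pools so limited, 33.9, 22.8 and 94.9 at 100 or more UMIs and 1.60, 3.13 and 7.29 at 20 to 99 UMIs. No paired analysis was possible because each group has 1 library and no test was run. Depth limits genes under 3 UMIs in the tail-rich pool, which is 63.1 CPM.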

Other observations

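Tail-rich barcodes with and without chromatin gene UMIs were read apart within bands of depth, for lists outside the rule. At 100 or more UMIs, the 41 with 1 or more chromatin gene UMIs stood at 22910 CPM for the acrosome list, 14388 CPM for the energy list and 13120 CPM for the flagellum list. The 29 with 0 stood at 20032 CPM, 12443 CPM and 9442 CPM for the same lists. At 20 to 99 UMIs, the 92 with 1 or more stood at 6494 CPM for the acrosome list, 6494 CPM for the energy list and 5647 CPM for the flagellum list, and the 193 with 0 at 10576 CPM, 4284 CPM and 3481 CPM for the same lists.

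The mitochondrially encoded share of single tail-rich barcodes ran from 0.216% to 48.7% with a median of 7.31% over the 70 of 100 or more UMIs, and from 0 to 59.5% with a median of 6.90% over the 285 of 20 to 99 UMIs. Over the 70 it was lower in deeper barcodes (Spearman rho -0.64 over barcodes of 1 library, which are not replicates). In the 2343 remaining barcodes of 100 or more UMIs the median was 6.25% and rho was -0.23. At 20 to 99 UMIs the direction was the opposite, with rho 0.31 over the 285 tail-rich barcodes and 0.45 over the 44720 remaining barcodes. Most of the mitochondrially encoded UMIs of the tail-rich pool were ribosomal RNA, which made up 6.07% of its UMIs out of 7.09% in all.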
